A study of Mus musculus with 2 samples.

Results

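Casp8, Fadd, Cflar, Ripk1, Ripk3, Mlkl, Birc2 and Birc3 form the core of death receptor signalling and necroptosis, and their transcripts were examined in lipid A-treated mouse macrophages. The 8 genes were chosen by name for their roles in this pathway, with earlier results of these data known. They are 8 of 55536 annotated genes in the deposited tables. All 8 were expressed. Cflar, which restrains caspase-8, had the highest level at 348 ± 61.9 TPM (SD, n = 2 libraries), and Fadd, the adaptor that recruits caspase-8, had the lowest at 9.16 ± 1.80 TPM. TPM is the abundance of a gene's transcripts as a share of all in the library, adjusted for their length.

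When TNF or a related ligand binds a death domain receptor, the kinase RIPK1 is drawn to the receptor, where the ubiquitin ligases cIAP1 and cIAP2 (products of Birc2 and Birc3) hold it in a survival complex. If that complex breaks up, FADD joins and brings in caspase-8, which drives apoptosis as a homodimer, while its heterodimer with the long Cflar product, cFLIP, holds cell death back. If caspase-8 is blocked, RIPK1 can instead activate RIPK3, which phosphorylates MLKL so that it opens the plasma membrane, a form of death called necroptosis. Macrophages are well known for necroptosis when TLR4, the receptor of lipid A, is engaged under caspase inhibition, since its adaptor TRIF can bind RIPK3 directly.

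The data are polyA plus RNA-seq of bone marrow-derived macrophages from C57BL/6J mice, phagocytes grown in culture from marrow cells. The 2 libraries, biological replicates 1 and 2, make up a single group. Cells received 100 ng/ml lipid A, the inner part of bacterial lipopolysaccharide, for 12 h, were then washed out for 12 h, and received 100 ng/ml again for 120 min before harvest. The agent is named lipid A in the description of each sample and lipoprotein A in its source and treatment fields. Both libraries carry the same donor identifier, and sex and age were not collected. Nothing states that the cultures were from different animals, and the spread between libraries may be technical in part. An untreated or singly treated sample was not analysed here, so no level below can be called induced or repressed, and only transcripts, not proteins or their phosphorylation, were measured.

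Replicate 1 held 45377715 expected counts and replicate 2 held 32112416, and the members had between 333 and 47719 of them per library. Of 12 macrophage markers, 11 reached 10 TPM in both libraries, with a summed level of 22090 TPM in replicate 1 and 24400 TPM in replicate 2. The exception was Cx3cr1, at 0.30 and 0.15 TPM. The 12 neutrophil markers summed to 70.05 and 12.4 TPM, none at 10 TPM in both and Ly6g and Retnlg at 0 in both, and 5 platelet markers summed to 274.5 and 95.9 TPM, nearly all of it Pf4 at 270.9 and 95.2 TPM. The other 7 marker lists, of T, B, NK, dendritic, mast, erythroid and stromal cells, each summed to between 0 and 7.37 TPM. The part of these other cells in the differences between libraries was not tested. In whole cultures, fewer cells of a type and less RNA per cell cannot be told apart.

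The adaptor and the protease of the pathway stood far apart in level. Fadd (ENSMUSG00000031077.7; mm10 chromosome 7, 144577318 to 144582463, minus strand) had 10.4 TPM in replicate 1 and 7.88 TPM in replicate 2, from 1185 and 607 expected counts. Replicate 1 was the higher library, and the deposited posterior intervals of its TPM, 9.53 to 10.7 in replicate 1 and 6.96 to 8.16 in replicate 2, did not overlap. The gene has 1 annotated transcript, which codes for 205 codons over 2 exons. An antisense gene, Faddos, overlaps it, but held 0 reads in replicate 1 and 2.08 in replicate 2, so almost no reads were assigned to it.

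Casp8 (ENSMUSG00000026029.14; chromosome 1, 58795374 to 58847503, plus strand), the initiator caspase of this pathway, had 80.4 TPM in replicate 1 and 80.8 TPM in replicate 2, a mean of 80.6 ± 0.269 TPM (SD, n = 2). The libraries were nearly level, and within each of them Casp8 stood 7.71 times (replicate 1) and 10.3 times (replicate 2) above Fadd in TPM. A second set of transcript estimates was deposited for the same reads, made without an alignment file and called the second quantification here, while the gene table and its matching transcript table are the first estimate. The second quantification gave Casp8 69.3 and 77.9 TPM, and Fadd 8.64 and 7.58 TPM.

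The transcripts of Casp8 differ at their 5′ end. Casp8-202, which begins 7128 bases downstream of the annotated gene start, held 64.8% and 69.2% of the gene's TPM, and Casp8-201, which begins at the gene start, held 28.2% and 22.6%. With the minor transcripts added, those from the downstream start held 71.4% and 77.4%, and the second quantification gave 71.7% and 78.1%. Replicate 2 was the higher library by this share in both. Casp8-201 and Casp8-202 have the same coding sequence of 480 codons. Casp8-203 and Casp8-204 code for 500 codons because a further exon opens the reading frame 20 codons earlier. That addition is shown because it is what sets the longer coding form apart. The capitals mark the 60 added bases, from chr1:58804083-58804114 and the beginning of the next exon in mm10, plus strand, and the lower case bases begin with the start codon of the other transcripts, up to position 58823966.
Casp8-203 start: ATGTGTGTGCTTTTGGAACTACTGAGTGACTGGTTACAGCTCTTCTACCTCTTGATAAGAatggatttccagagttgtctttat

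The 500-codon form was the minor one, at 7.05% of Casp8 TPM in replicate 1 and 8.24% in replicate 2. In the second quantification its share was 21.1% and 22.4%. The gap lay mainly in Casp8-204, which had 0.33 and 0 TPM in the first estimate but 8.11 and 9.86 TPM in the second. The size of this minor form was thus not fixed by these data, whereas its place below the 480-codon form held in both libraries and both estimates.

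Cflar (ENSMUSG00000026031.15; chromosome 1, 58711508 to 58758884, plus strand) had 304 TPM in replicate 1 and 392 TPM in replicate 2, from 47719 and 40743 expected counts. Replicate 2 was the higher library, also in the second quantification, with 277 and 416 TPM. Cflar exceeded Casp8, its binding partner, 3.78 times in replicate 1 and 4.85 times in replicate 2, and by 4.0 and 5.34 times in the second quantification. It made up 42.2% and 44.8% of the summed TPM of the 8 genes. Cflar and Casp8 lie close together on this chromosome, with 36489 bases and 1 other annotated gene between the end of Cflar and the start of Casp8.

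**Figure D1:**
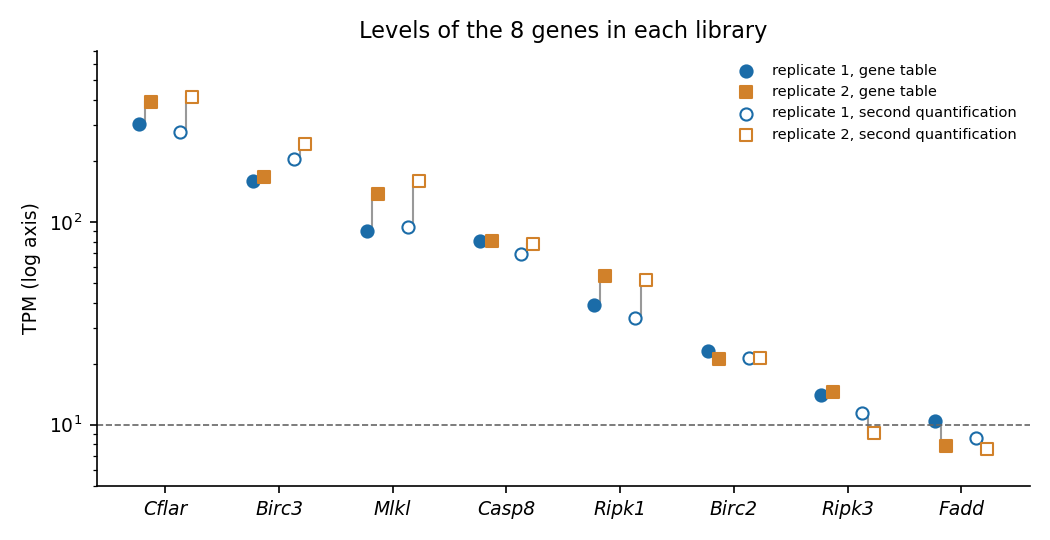
TPM on a log axis of each of the 8 genes in replicate 1 (circles) and replicate 2 (squares), from the gene table (filled) and the second quantification (open), with the dashed line at 10 TPM. Cflar lies highest, at 304 and 392 TPM in the gene table, and Fadd lowest, at 10.4 and 7.88 TPM.

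Cflar makes a long protein with a caspase-like domain that has no protease activity and a short one without that domain, known in mouse as cFLIP-R. Both proteins enter the death receptor complex, and the short one blocks caspase-8 more fully, which is why their ratio is of interest for necroptosis. Both transcript forms were present. Cflar-205, with 10 exons and 481 codons, had 222 TPM in replicate 1 and 278 TPM in replicate 2. Cflar-204, with 5 exons and 215 codons, had 54.4 and 70.8 TPM. The long form was thus the more abundant in both libraries, by 4.09 times in replicate 1 and 3.93 times in replicate 2. As a share of the TPM of the 4 protein-coding Cflar transcripts it was 80.0 ± 0.438% (SD, n = 2), with 80.3% in replicate 1 and 79.7% in replicate 2.

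The 2 forms share 204 codons. There the long form splices to the next coding exon, while the short form reads on across the splice donor into the intron and stops after 11 more codons. The junction is shown because it is what tells the forms apart. In both lines the lower case bases are the shared exon end (chr1:58732297-58732326, mm10, plus strand). Capitals mark the bases of the next exon (chr1:58735658-58735693) in the long form, and the bases read on from the same exon up to and including the stop codon (chr1:58732327-58732362) in the short form.
Cflar-205 long: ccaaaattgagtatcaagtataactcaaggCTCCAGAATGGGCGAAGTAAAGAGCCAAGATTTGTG
Cflar-204 short: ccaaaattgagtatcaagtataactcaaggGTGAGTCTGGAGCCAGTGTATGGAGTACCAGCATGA

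The near-constant ratio held while the gene itself differed between libraries, with both forms higher in replicate 2. The second quantification gave a long share of 78.4% in replicate 1 and 78.8% in replicate 2, slightly lower and with the libraries in the other order. The first exons differ too: Cflar-205 begins 52 bases from the gene start, and Cflar-204 begins 1786 bases from it. Cflar-201, a long form that begins near the Cflar-204 start, had 0 TPM in both libraries, and 0.0479 and 0 TPM in the second quantification. The long form was therefore assigned almost wholly to the upstream first exon. The short form has only 1 annotated coding transcript, at the downstream start, so its start was fixed by the annotation and not measured. The 9 noncoding Cflar transcripts together held 9.06% and 10.9% of TPM in the first estimate and 14.8% and 17.3% in the second, where Cflar-212 alone held 4.53% and 7.71%.

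**Figure D2:**
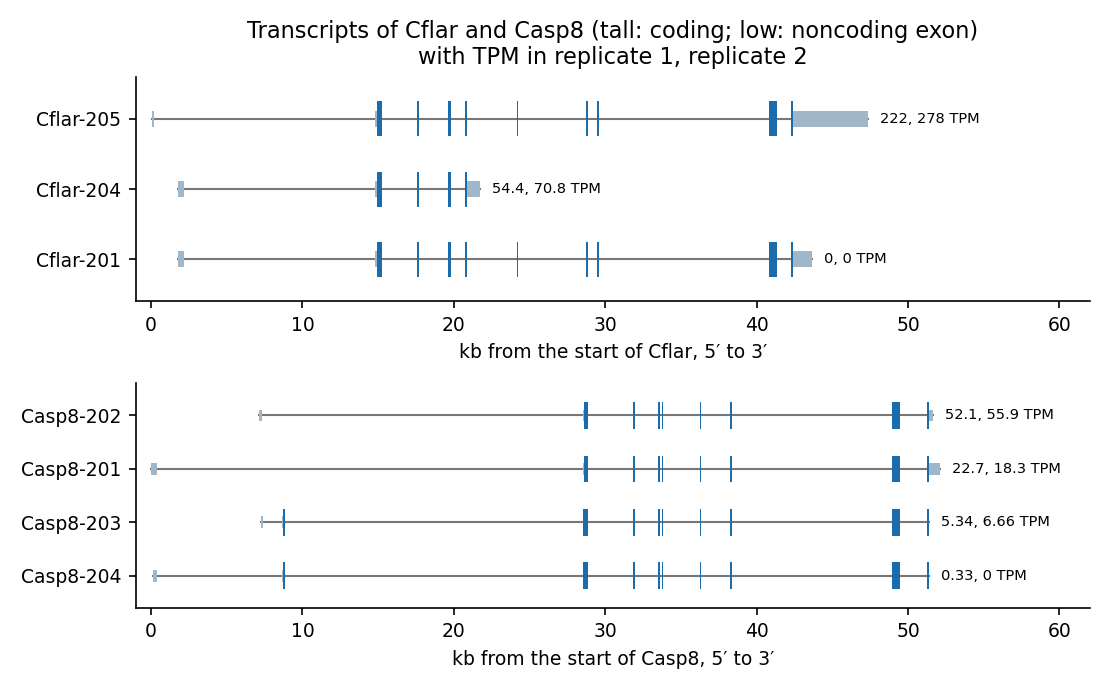
Exon models of 3 Cflar and 4 Casp8 transcripts, drawn in kilobases from the start of each gene in the direction of transcription, with coding exons tall and noncoding exon parts low, and TPM in replicate 1 and replicate 2 beside each. Cflar-205 continues past the exon where Cflar-204 ends, and the Casp8 transcripts differ in their start and in 1 added coding exon.

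Among the kinases, Ripk1 was the higher in both libraries. Ripk1 (ENSMUSG00000021408.15; chromosome 13, 34002363 to 34037147, plus strand), which scaffolds the survival complex and starts cell death through its kinase activity, had 38.8 TPM in replicate 1 and 54.4 TPM in replicate 2, from 4099 and 3681 expected counts. The second quantification put it at 33.6 and 51.9 TPM, again with replicate 2 higher. Ripk1-201 held 86.0% and 92.4% of the TPM and Ripk1-203, which has the same coding sequence of 656 codons but ends 3470 bases further downstream, held 12.7% and 6.73%. The start of Ripk1 overlaps that of Serpinb6a on the other strand. Serpinb6a had 13242 and 6440 expected counts, and whether counting used strand is not given in the sources used here, so reads in the overlap are uncertain.

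Ripk3 (ENSMUSG00000022221.14; chromosome 14, 55784995 to 55788865, minus strand), the kinase that activates MLKL, had 14.0 TPM in replicate 1 and 14.45 TPM in replicate 2. This evenness was not present in the reads. Expected counts were 706 and 333, which is 15.2 and 10.7 CPM (counts scaled to a common library size), 0.702 times as high in replicate 2 as in replicate 1 (exact 95% counting interval 0.614 to 0.800). The effective length used to turn counts into TPM was 1606 bases in replicate 1 and 1086 bases in replicate 2.

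The transcript table shows where the lengths parted. In replicate 2, 22.2 reads on short incomplete or noncoding Ripk3 transcripts made up 37.3% of the gene's TPM. They were Ripk3-209 with 15.9 reads, Ripk3-206 with 4.68 and Ripk3-204 with 1.65, and all of them had 0 reads in replicate 1. The full-length Ripk3-201 (486 codons) had 13.7 TPM in replicate 1 and 8.73 TPM in replicate 2. Summed over transcripts with a complete coding sequence, the level was 14.0 and 9.05 TPM. In the second quantification, which gave those short transcripts 0 reads in both libraries, Ripk3 was at 11.4 and 9.06 TPM, with replicate 1 again the higher. Replicate 1 was the higher library for Ripk3 in counts, in the second quantification and in the deposited posterior mean of TPM (16.5 and 15.8), but not in the gene-level TPM.

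Mlkl (ENSMUSG00000012519.14; chromosome 8, 111311797 to 111338177, minus strand), the executioner of necroptosis, had 90.0 TPM in replicate 1 and 138 TPM in replicate 2, from 4747 and 4975 expected counts. It was well above the kinase that activates it, by 6.43 times in replicate 1 and 9.53 times in replicate 2. With the second quantification, which gave Mlkl 94.1 and 159 TPM, the ratio to Ripk3 was 8.28 and 17.5. Mlkl therefore exceeded Ripk3 in each library under both estimates, though by a factor that depended on the library and the estimate.

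Mlkl had 2 transcripts with a complete coding sequence, and they differ by 8 in-frame codons. Mlkl-202, with 464 codons, held 89.7% and 88.4% of the TPM, and Mlkl-201, with 472 codons, held 9.24% and 11.5%. They use different splice donors at the end of the same exon, and the segment is shown because it is the whole of the coding difference. In the lines below, written along the minus strand of mm10, the lower case bases before the segment end at position 111314965 and those after it are chr8:111312054-111312077. Capitals mark the 24 bases (chr8:111314941-111314964) that are present in Mlkl-201.
Mlkl-201: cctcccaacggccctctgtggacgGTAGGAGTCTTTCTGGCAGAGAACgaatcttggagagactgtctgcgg
Mlkl-202: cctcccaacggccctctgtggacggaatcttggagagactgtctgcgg

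The second quantification kept this order, with Mlkl-202 at 73.0% and 71.1% and Mlkl-201 at 10.5% and 12.3%. It put most of the rest, 15.3% and 16.5%, on Mlkl-204, an incomplete coding transcript that had 0 TPM in the first estimate.

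The ubiquitin ligase genes were uneven in level. Birc3 (ENSMUSG00000032000.17; chromosome 9, 7848699 to 7873186, minus strand), which encodes cIAP2, had 160 TPM in replicate 1 and 166 TPM in replicate 2. Birc2 (ENSMUSG00000057367.12; chromosome 9, 7818227 to 7837064, minus strand), which encodes cIAP1, had 23.1 and 20.98 TPM. Birc3 was 6.92 times as high as Birc2 in replicate 1 and 7.92 times in replicate 2. The genes lie side by side with 11634 bases and no other annotated gene between them. Of the 4579 distinct 31-base words in Birc2 transcripts, 93 also occur in Birc3 transcripts on either strand, so only a small part of their sequence could not tell reads of the pair apart.

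The level of Birc3 depended on which of its transcripts were counted. Birc3-201, the full coding form of 602 codons, held 80.3% and 79.4% of TPM in the first estimate but 51.0% and 50.1% in the second. Birc3-205 and Birc3-206 are noncoding transcripts of 355 and 360 bases. They took 67 and 57 reads in the first estimate, which their short length turned into 13.6% and 16.3% of TPM. The second estimate gave them more reads, 371.6 and 319.5, and 40.4% and 40.5% of TPM. Birc3-203, an incomplete coding transcript, held 2.65% and 1.23%, against 6.33% and 7.34% in the second estimate. On transcripts with a complete coding sequence, Birc3 had 129 and 133 TPM in the first estimate and 106 and 123 TPM in the second, still above Mlkl in replicate 1 in both and below it in replicate 2 in both.

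For Birc2, Birc2-204 and Birc2-202 have the same coding sequence of 612 codons and begin 1802 bases apart. Together they held 86.5% and 87.7% of TPM, and 75.2% and 79.2% in the second quantification. Birc2-204 held 66.0% in replicate 1 and 48.0% in replicate 2, and Birc2-202 20.5% and 39.7%. The split between them was unsteady, since the second quantification gave Birc2-202 2.66% in replicate 1 and 28.7% in replicate 2. Of the noncoding transcripts, Birc2-205 held 9.52% and 10.9% and Birc2-203 held 4.01% and 0.55%. The second quantification gave Birc2-205 19.6% and 18.4% and Birc2-203 5.19% and 2.39%.

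**Figure D3:**
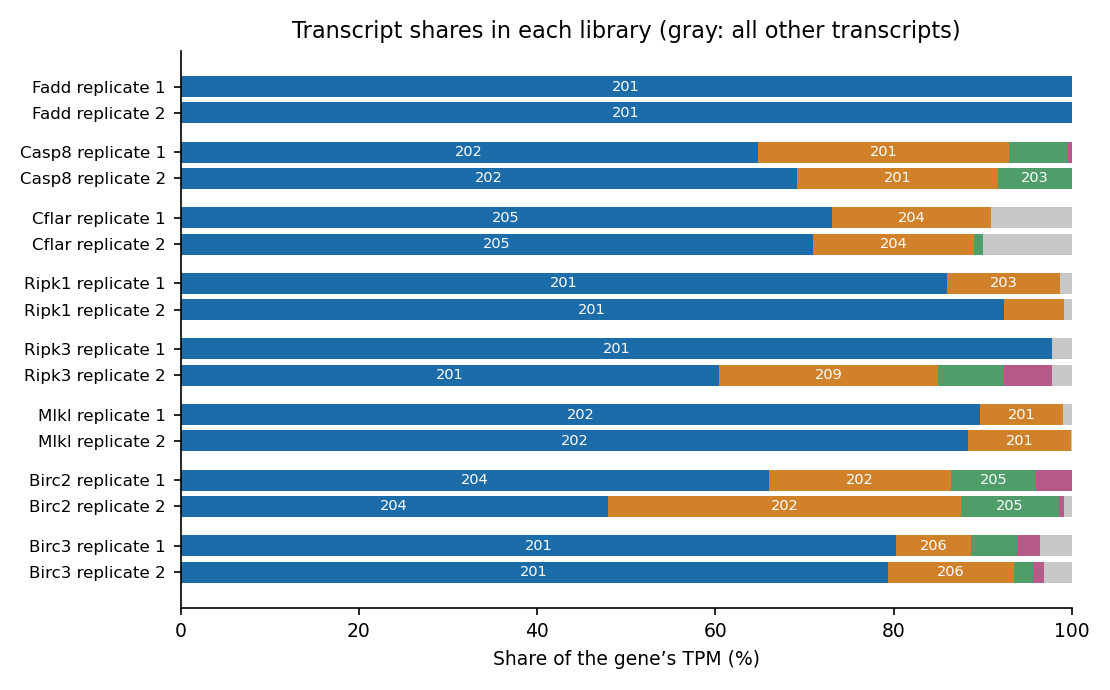
Share of each gene's TPM in the gene table's matching transcript table, by transcript, for each gene in replicate 1 and replicate 2, with transcript numbers written in the larger segments and all unnamed transcripts in gray. Fadd has 1 transcript, Cflar-205 holds 73.1% and 71.0% of Cflar, and Ripk3 shows the short transcripts that appear in replicate 2.

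Ordered by mean TPM the genes ran Cflar at 348 ± 61.9, Birc3 at 163 ± 4.46, Mlkl at 114 ± 33.7, Casp8 at 80.6 ± 0.269, Ripk1 at 46.6 ± 11.1, Birc2 at 22.05 ± 1.51, Ripk3 at 14.2 ± 0.318 and Fadd at 9.16 ± 1.80 TPM (SD, n = 2 each). In each of the 7 pairs of neighbours, the lower library of the higher gene was above the higher library of the lower gene, in both quantifications. No test was run on this order. An exact permutation test of 2 against 2 libraries cannot go below 0.33. It would also ignore that both genes of a pair were measured in the same 2 libraries. When only transcripts with a complete coding sequence were counted, the order of the means was the same, but Birc3 (129 and 133 TPM) and Mlkl (89.1 and 137 TPM) no longer stood apart, nor did Ripk3 (14.0 and 9.05 TPM) and Fadd (10.4 and 7.88 TPM). The small SD of Ripk3 in gene-level TPM was not present in its counts, 706 and 333. On transcripts with a complete coding sequence Ripk3 was at 11.5 ± 3.49 TPM.

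Against the rest of the transcriptome the 8 genes were spread widely. A level of at least 10 TPM in both libraries was reached by 7 of the 8, all but Fadd, against 11.1% of all annotated genes and 27.2% of protein-coding genes. Ripk3 passed in replicate 2 at 14.45 TPM, a level partly from short transcripts. It had 9.05 TPM there on transcripts with a complete coding sequence and 9.06 TPM in the second quantification. By either of these, 6 of the 8 reached 10 TPM in both libraries, and no share over all genes was taken by them. At least 100 TPM in both was reached by Cflar and Birc3, a threshold at which no share over all genes was taken. The median of the 8 genes was 63.6 TPM, against 18.2 TPM over the 9773 protein-coding genes at 1 TPM or more in both libraries. Cflar was above 95.6% of those genes, Mlkl above 87.8%, Ripk3 above 43.7% and Fadd above 32.0%. The second quantification and the gene table differed at least 1.5-fold in the same direction in both libraries for 0 of the 8, with 3.02% as the share over all genes at 1 TPM or more in both.

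The replicates differed for the members about as much as for other genes. In counts scaled by TMM, a method that sets library sizes from the bulk of genes, Mlkl was 1.56 times as high in replicate 2 as in replicate 1 (exact 95% counting interval 1.5 to 1.62), Ripk1 1.34 times (1.28 to 1.40) and Cflar 1.27 times (1.25 to 1.29). Fadd was 0.762 times as high (0.689 to 0.841) and Birc2 0.905 times (0.841 to 0.973). Casp8, at 0.992 times (0.947 to 1.04), and Birc3, at 1.03 times (1.00 to 1.07), were nearly level, and their small differences changed direction with the scaling, Casp8 with DESeq2 size factors and Birc3 with library totals. The intervals cover counting error only.

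None of the 8 was 2-fold apart, against 11.3% of the 12552 genes that averaged at least 10 expected counts, and 1, Mlkl, was 1.5-fold apart, against 30.3%. The median member was 1.29-fold apart, as was the median of all those genes. With 4 members higher in each library and 2 libraries in all, no direction was shared. Mlkl, Ripk1 and Cflar were higher in replicate 2, while Fadd, Birc2 and, in counts, Ripk3 were higher in replicate 1. Of the 9 marker lists of other cell types, all but that of mast cells summed lower in replicate 2. The platelet sum was nearly all Pf4. A link between these sums and the ratios of the members was not tested.

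**Figure D4:**
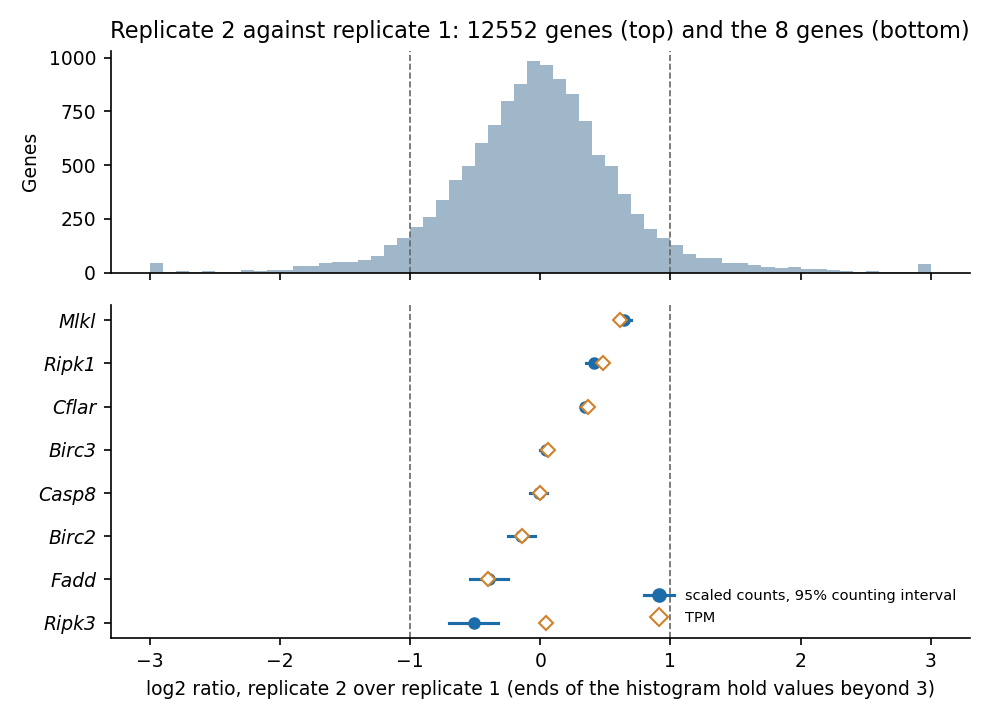
Log2 ratio of replicate 2 over replicate 1 for 12552 genes (histogram, in scaled counts) and for the 8 genes (circles with 95% counting intervals in scaled counts, diamonds in TPM), with dashed lines at 2-fold. All 8 lie inside 2-fold, and Ripk3 is the gene whose ratio differs between counts (0.702) and TPM (1.03).

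The genes around the 8 were described by 9 lists with 80 measured genes. Of these 59 reached 10 TPM in both libraries, against 27.2% of protein-coding genes, and 7 were under 1 TPM in both. Between libraries 6 of the 75 that averaged at least 10 expected counts were 2-fold apart, against 11.3% of all such genes: Tnfrsf10b (2.04-fold), Tnfsf15 (3.79-fold), Tab2 (2.25-fold) and Naip1 (2.39-fold) were higher in replicate 2, and Tab1 (2.23-fold) and Dedd2 (2.06-fold) in replicate 1. Tnfrsf10b, Naip1, Dedd2 and Tab1 were low, with means of 0.755, 0.575, 1.495 and 3.17 TPM.

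Receptors and ligands differed sharply within their lists. Of 6 death domain receptors 3 reached 10 TPM in both libraries, with a list median of 10.8 TPM. Tnfrsf1a, the main TNF receptor, had 163 and 132 TPM, Fas had 34.5 and 29.6 TPM, and Tnfrsf21, a receptor known as DR6, had 19.4 and 22.1 TPM. Tnfrsf10b, the mouse TRAIL receptor, had 0.50 and 1.01 TPM. Among 5 ligands 2 reached 10 TPM in both libraries. Tnf had 1078 and 1184 TPM, whereas Tnfsf15 had 22.5 and 84.6 TPM, Tnfsf10, which encodes TRAIL, had 10.5 and 8.33 TPM, and Fasl, the ligand of Fas, had 3 reads in replicate 1 and 0 in replicate 2. The transcripts of the TNF and TNF receptor pair were thus abundant in both libraries, while the count of 0 for the Fas ligand in replicate 2 allows up to 3 reads.

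In the receptor complex, 18 of 23 genes reached 10 TPM in both libraries and the median was 40.1 TPM. By mean TPM of the gene table, the highest were Mapkapk2, a kinase that phosphorylates RIPK1, with 341 and 397 TPM, Tnip1, a ubiquitin-binding partner of A20, with 251 and 450 TPM, and Tnfaip3, which encodes A20 itself, with 200.2 and 272 TPM. The adaptor Tradd had 17.8 and 9.52 TPM and Traf2, which brings the cIAPs to the receptor, had 44.2 and 24.1 TPM, both higher in replicate 1. The deubiquitinase gene Cyld had 19.6 and 18.2 TPM. Tab2, which couples the kinase TAK1 to ubiquitin chains, had 50.4 and 119.6 TPM, and its partner Tab1 had 4.35 and 1.99 TPM.

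RIPK1, RIPK3, ZBP1 and TRIF bind each other through a short shared motif, the RHIM. All 5 genes listed as RHIM adaptors or as receptors and regulators acting on them reached 10 TPM in both libraries, with a median of 51.1 TPM. Zbp1, a sensor of Z-form nucleic acid that binds RIPK3, had 572 and 619 TPM. Adar, whose product edits double-stranded RNA and restrains ZBP1, had 122 and 100.1 TPM. Ticam1, which encodes TRIF, had 42.6 and 59.5 TPM, and Tlr4 had 21.3 and 13.0 TPM. Zbp1 thus exceeded every one of the 8 members in both libraries, on a scale corrected for length.

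On the apoptotic side, 6 of 8 other caspases reached 10 TPM in both libraries, with a median of 27.4 TPM. The inflammatory caspases led, Casp1 with 222 and 173 TPM and Casp4 with 103 and 132 TPM. All 5 genes of the mitochondrial arm reached it, with a median of 62.97 TPM, led by the pore-forming Bak1 at 227 and 313 TPM and Bax at 119.8 and 81.1 TPM and by cytochrome c (Cycs) at 56.1 and 69.8 TPM. Of 10 other IAP genes and antagonists 6 reached it, with a median of 18.6 TPM. The highest by mean TPM, in a different order in each library, were Naip2, a sensor of bacterial type III secretion in mouse, at 39.5 and 43.7 TPM, the mitochondrial protease Htra2 at 45.7 and 37.1 TPM and the large ubiquitin ligase Birc6 at 41.8 and 40.4 TPM. Xiap, a direct inhibitor of caspases, had 27.1 and 25.5 TPM, close to Birc2 and far below Birc3.

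Of the other genes with a death effector domain, Pea15a, whose product binds FADD, had 225 and 306 TPM, Dedd 30.98 ± 0.0283 TPM (SD, n = 2), and Dedd2 2.00 and 0.99 TPM, with 2 of 3 at 10 TPM in both and a median of 30.98 TPM. The small SD of Dedd holds for gene-level TPM only. In scaled counts Dedd was 0.919 times as high in replicate 2 as in replicate 1, and the second quantification gave it 30.4 and 33.2 TPM. The necroptosis regulators had the highest median of the 9 lists, 94.3 TPM, and 12 of 15 reached 10 TPM in both. By mean TPM they were led by Hsp90ab1, at 735 and 945 TPM, whose chaperone acts on RIPK1, RIPK3 and MLKL with the cochaperone of Cdc37, at 177 and 248 TPM. Chmp4b, part of the ESCRT-III machinery that sheds membrane damaged by MLKL, had 475 and 591 TPM. These lists were described by level only, since no second condition was at hand.

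**Figure D5:**
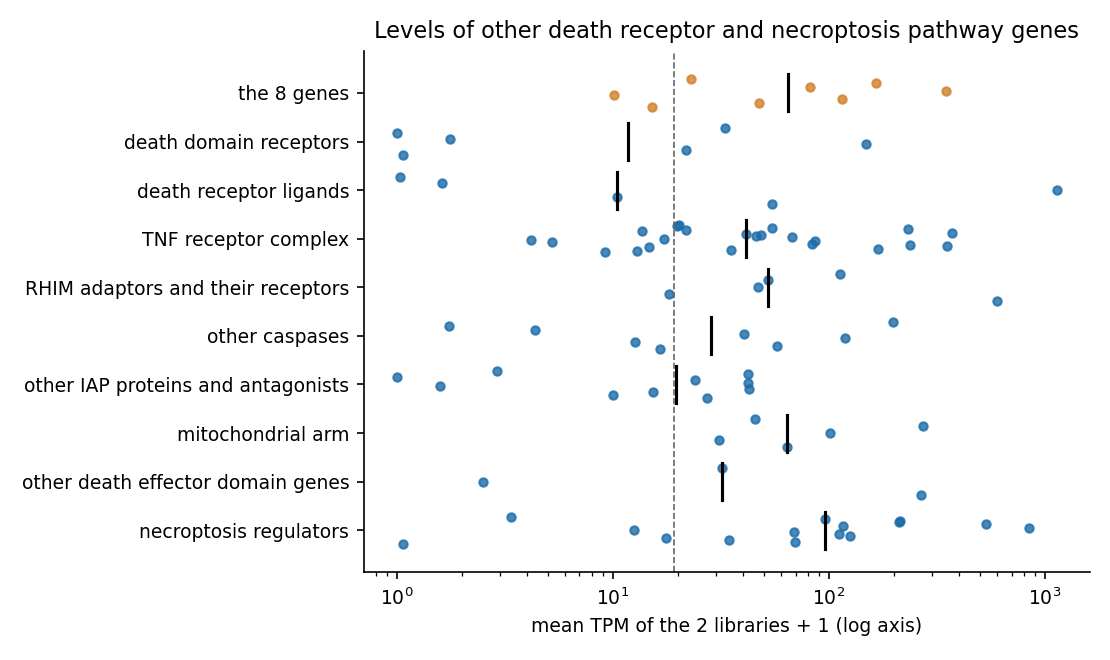
Mean TPM of the libraries plus 1, on a log axis, for the 8 genes (orange) and for each gene of 9 other pathway lists (blue), with a black bar at each list's median and a dashed line at the median of detected protein-coding genes. The 8 genes have a median of 63.6 TPM, and Tnf at 1131 TPM and Hsp90ab1 at 840 TPM lie highest among the others.

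Sequence shared with other genes limits how surely reads of some members were placed. Ripk3 and Mlkl shared none of their 31-base words with any other annotated gene. The share was 2.69% for Birc2, 8.51% for Ripk1, 8.64% for Casp8, 8.73% for Fadd, 9.40% for Cflar and 11.6% for Birc3. The gene sharing the most words was a pseudogene for Cflar (Gm9845), Casp8 (Gm20257), Ripk1 (Gm17084) and Birc3 (Gm7019), and the most any of these pseudogenes held in a library was 78.9 expected counts. The 8 genes had a deposited posterior SD of at most 9.25 counts.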

How the data were processed

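PolyA plus RNA-seq was measured in 2 libraries of 1 group. Per the submitters' processing notes, values refer to mouse build mm10 and GENCODE M21. Expected counts (read estimates, not always whole numbers), TPM and FPKM are as the authors deposited them per gene. Their transcript table adds the percent of a gene's TPM that each transcript holds, as deposited. The second quantification is a further deposited table of transcripts, with counts estimated without alignments, which was added up per gene. The tools that made these tables, and the strand setting, are not stated (not given in the sources used here). Rows outside annotated genes were left out, with 0.0788% (replicate 1) and 0.0771% (replicate 2) of the expected counts.

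Replicate 2 was set against replicate 1 by the ratio of expected counts, each plus 0.5 reads and divided by its TMM library size (edgeR 4.0.16, R 4.3.3), over genes with a mean of at least 10 expected counts. The intervals are exact binomial (Clopper-Pearson) at 95%. Amplified reads without molecular identifiers are not independent molecules, so the intervals and the limit of 3 reads for a count of 0 cover counting error only. No edgeR or other test between conditions was possible. Long Cflar forms code for over 400 codons and short ones for under 300. Coding segments were read from the GENCODE M21 transcript sequences with Python 3.11.15.

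The members and all lists were chosen with earlier results of these data known. Named were the 8 members, their transcripts with at least 5% of a gene in either library or quantification, the 3 highest genes of each pathway list, its genes at least 2-fold apart, and further genes listed by name. Cflar-201, the genes that overlap or resemble a member, and single markers of other cell types were named after their values were seen. Some genes that this rule names are not reported here. Alternatives were the second quantification, FPKM, TPM rescaled to protein-coding nuclear genes, the deposited posterior mean, DESeq2 1.42.0 size factors, library totals, TPM ratios, other filters and thresholds, and leaving out each library. Counting only transcripts with a complete coding sequence was chosen after seeing the data.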

Additional observations from a re-analysis of the deposited data

How the results depend on the processing

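The order of the members by mean level held for all 28 pairs under each alternative tried. Within replicate 2, Mlkl (137 TPM) stood above Birc3 (133 TPM) on transcripts with a complete coding sequence. The median level of the 8 genes moved to 42.97 in FPKM and to 73.1 TPM when values were rescaled to protein-coding nuclear genes, which change the scale of every gene. The number at the level threshold in both libraries was 7, with 8 at 5 TPM, 6 at 20 TPM and 4 at 50 TPM. No share of all genes reaching the level was taken at those other thresholds, in the second quantification or on transcripts with a complete coding sequence. At 10 TPM the number was 6, without Ripk3 and Fadd, in the second quantification and on transcripts with a complete coding sequence. It was 7 to 8 when 1 library was left out. None of the 8 was 2-fold apart under any scaling, filter or quantification, and at 1.5-fold there was 1 with TMM-scaled counts, 0 with library totals and 2 with TPM of transcripts with a complete coding sequence. The range of ratios over the alternatives was 1.48 to 1.58 for Mlkl and 0.647 to 1.03 for Ripk3, and that of Ripk3 changed direction with the TPM ratio. The TPM ratio of the second quantification was not among these alternatives. By that ratio Mlkl was at 1.69, Ripk1 at 1.54, Cflar at 1.5, Birc3 at 1.19 and Casp8 at 1.12. Birc2 was at 1.0, Fadd at 0.877 and Ripk3 at 0.798. The long share of Cflar was 78.6% in the second quantification and 72.1% over all Cflar transcripts, and 79.7 to 80.3% when 1 library was left out. The leading transcript of each gene was the same under every alternative. Leaving a library out not counted, the leading share moved by more than the spread between libraries in 7 cases and by less in 9. Fadd has 1 annotated transcript, so its leader and share were fixed, and its cases are among the 9. The level of a single member moved by more than that spread in 21 cases and by less in 19. The 21 include every member in FPKM and some members in the rescaled TPM, where the scale itself changes. Depth limited Ripk3 and Fadd most, with 333 and 607 expected counts in replicate 2. No paired analysis between groups was possible because there is 1 group. Genes and transcript forms were compared within each library, without a test.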
